A study of Mus musculus with 4 samples.

Results

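The genes described here are the nuclear genes of respiratory complexes II, III, IV and V in brown adipocytes of the mouse, fat cells that burn fuel for heat. They were chosen by symbol alone: succinate dehydrogenase subunits and their assembly factors (Sdha to Sdhd and Sdhaf), complex III genes (Uqcr and Cyc1), cytochrome c (Cycs), cytochrome c oxidase subunits and assembly factors (Cox with a number, Sco1 and Sco2, Surf1) and ATP synthase genes (Atp5). The tissue isoforms of cytochrome c oxidase (Cox4i1, Cox4i2, Cox6a1, Cox6a2, Cox7a1, Cox7a2, Cox7a2l, Cox8a and Cox8b) were left out. Of 10926 genes with a probe set named by exactly 1 symbol, 50 were members, read by 71 of 23599 probe sets. Where several probe sets read a gene, the brightest on average across the 4 arrays stood for it. By complex there were 8 genes for complex II, 9 for complex III with cytochrome c, 7 subunits and 9 assembly factors of complex IV, and 17 for complex V. Sco2 and Cox7b were not analysed here.

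Wild type brown preadipocytes carrying either an empty vector or a vector that expresses Blnc1 (brown fat lncRNA 1), a long noncoding RNA, went through 6 days of differentiation, after which their total RNA was read on single-colour Affymetrix arrays that read the 3' part of transcripts. There were 2 arrays of vector cells and 2 of Blnc1 cells, which the labels call biological replicates without saying whether each was a transduction of its own. The p-values therefore reflect no more than how far these arrays spread, and having so few limits the precision. Both groups are transduced cultures, and the sources used here give neither the age or sex of the source animals nor whether the cells are a clonal line.

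Complex II, or succinate dehydrogenase, passes electrons from succinate to ubiquinone, complex III passes them on to cytochrome c, and complex IV, cytochrome c oxidase, hands them to oxygen. Complexes III and IV pump protons, and complex V, the ATP synthase, lets protons flow back to make ATP. Brown fat mitochondria are rich in respiratory chain, but they hold little ATP synthase, and the uncoupling protein Ucp1 lets protons return without it. Low expression of Atp5g1, 1 of the 3 genes for the proton-carrying subunit c of the ATP synthase, is known to limit the amount of that enzyme in brown fat. Bulk RNA cannot tell more RNA per cell from more cells of a type.

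Median log2 values per array ran from 5.98 to 6.04, and the median log2 fold change over all genes was 0.0073. The transcript named C730029A08Rik, which the reference table gives as a synonym together with Blnc1, stood 24.8-fold higher in Blnc1 cells. Of 7 brown adipocyte markers 6 were higher past an adjusted p of 0.05 (limma, Benjamini-Hochberg), among them Ucp1 at a log2 fold change of 2.997. The general adipocyte markers (5 of 6 measured) lay between 9.24 and 13.28, while the measured markers of macrophages and leukocytes (3 of 5), endothelium (1 of 5) and skeletal muscle (2 of 7) lay between 4.16 and 5.02, below the array medians, and none of these 6 passed. The following measures differed between the group means of the same arrays, and their part in the results was not tested. All 18 hybridization controls read lower in Blnc1 cells (median difference -0.27), Gapdh control probes at the 3' end exceeded those at the 5' end by 0.41 in vector and by 0.28 in Blnc1 cells, Eif2s3y, Uty and Kdm5d of the Y chromosome had log2 fold changes of -1.18, -1.02 and -0.87, and Xist one of 0.55.

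The comparison asked how forced expression of Blnc1 altered these transcripts. On the brightest probe sets, complex II and III genes all read slightly higher in Blnc1 cells, and most genes of complexes IV and V lay close to no difference. The exceptions in complex IV were Cox6b2, Cox17 and Surf1, which read higher by 0.25 to 0.42 on the log2 scale. In complex V, Atp5g1, Atp5g3 and Atp5j read lower by 0.21 to 0.35, and Atp5g2 read higher by 0.14. The complexes were not sharply divided: Cyc1 and Cycs of complex III, at 0.050 and 0.060, stood below Cox5a and Cox5b (0.074 and 0.076). Further probe sets read up to 0.19 in complex IV (Cox6c) and 0.16 in complex V (Atp5h), and down to -0.040 for Atp5c1 and -0.031 for Cycs. Of the 50 members 43 had a positive log2 fold change (Blnc1 minus vector), against 51.6% of all genes, with a median of 0.069 and a range from -0.35 to 0.42. After repeated quantile normalization 39 were positive and after median centring 40, while all 17 genes of complexes II and III stayed positive under both. Both Blnc1 arrays lay above both vector arrays for 32 members (26 after median centring), against 28.3% of all genes, and below them for 5, against 24.9%. Bright genes in general leaned the same way: of 317 genes with a mean above 11, 190 (59.9%) were positive. Both Blnc1 arrays lay above both vector arrays for 139 of these 317 and below them for 82. Of the 31 members above that level 28 were positive, 23 lay above and 3 below. No member passed an adjusted p of 0.05 in either direction (limma, Benjamini-Hochberg over 23599 probe sets), where 1.23% of all genes did, and the smallest change of any gene that passed was 0.54 on the log2 scale. At an unadjusted p under 0.05 (limma) 7 members were higher, against 11.7% of all genes, and 3 were lower, against 9.08%. The 95% interval of the log2 fold change held 0 for 40 of the 50 members, with a median half-width of 0.19, and no member's interval reached above 0.64 or below -0.58.

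That count of 0 rested on how the variance was modelled. The fit gives all probe sets a common prior SD of 0.092, while bright probe sets, as most members are, varied less: replicate arrays differed by a median of 0.097 over all probe sets and of 0.034 over the 606 with a mean above 11. When limma's prior was allowed to follow the level (eBayes with a trend), the median standard error of the members went from 0.078 to 0.037 and 14 members passed an adjusted p of 0.05. At an unadjusted p under 0.05 that fit put 24 members higher, against 13.7% of all genes, and 3 lower, against 11.1%. Of the 14 that passed 11 were higher, against 6.38% of all genes, and 3 were lower, against 4.94%. Over all genes, most of them dimmer, the trend raised the median standard error from 0.088 to 0.107. These shares are therefore not those of equally bright genes, which were not counted under the trend. They were 2 genes of complex II, 6 of complex III, Cox6b2, Cox17 and Surf1 of complex IV, and Atp5g1, Atp5g3 and Atp5j. With no moderation of variances no member and no gene at all passed, and at an unadjusted p under 0.05 there were 16 members higher, against 8.88% of all genes, and 3 lower, against 6.74%. The adjusted p-values below are from the fit with the common prior unless the trend is named.

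**Figure D1:**
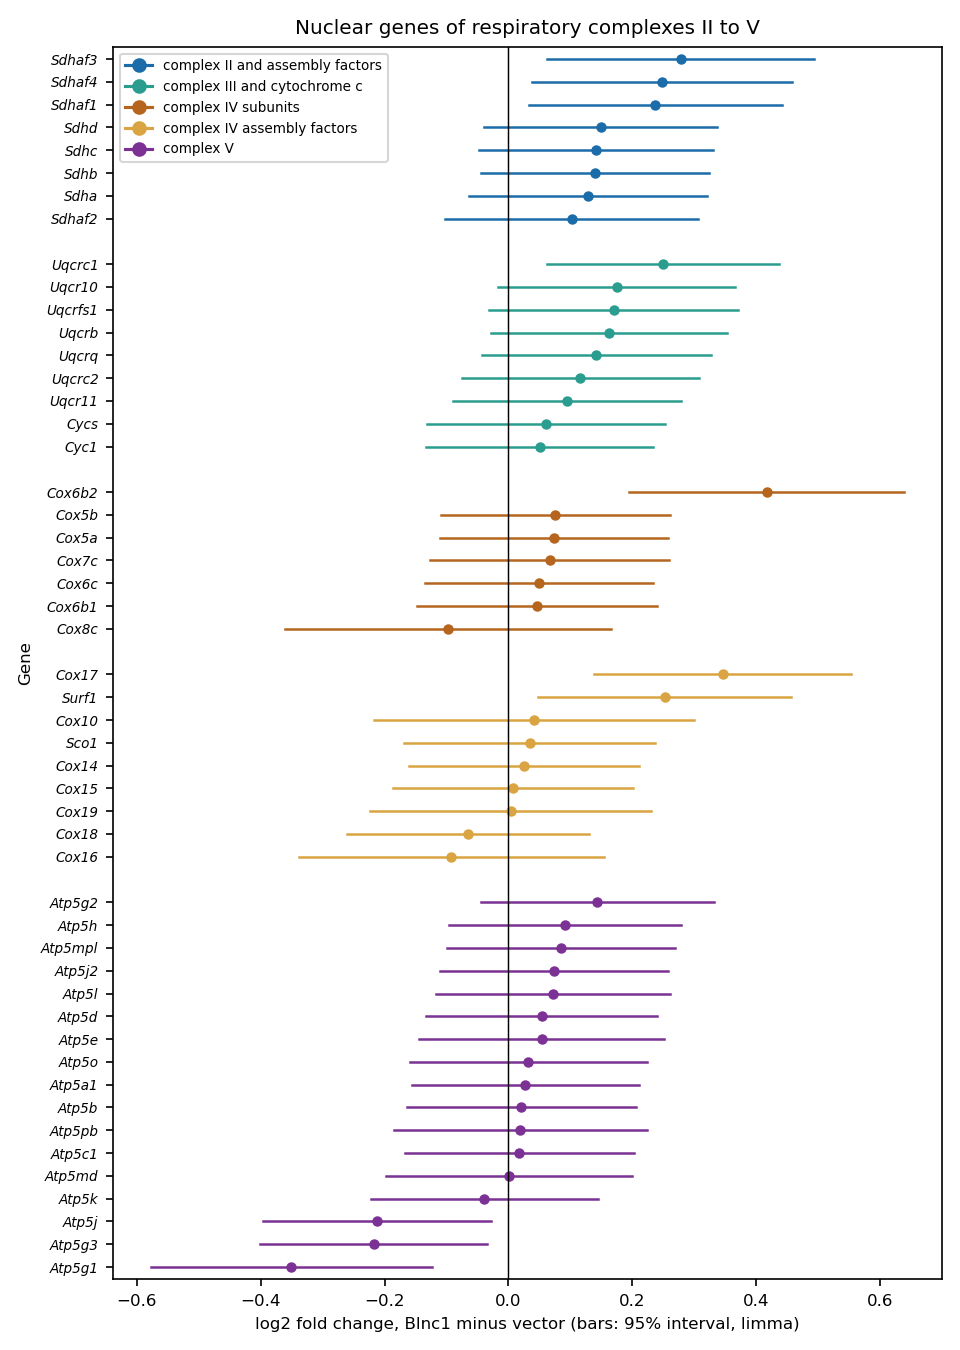
Each point is a gene's log2 fold change (Blnc1 minus vector, x axis) from 2 arrays per group, with its 95% interval from limma, ordered within complex. All 8 genes of complex II and 9 of complex III with cytochrome c lie to the right of 0, and Atp5g1, at -0.35, lies farthest to the left.

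Complex II has 4 subunits. Sdha, the flavoprotein that oxidises succinate, read 11.72 and 11.79 on the vector arrays and 11.87 and 11.91 on the Blnc1 arrays. Sdhb, the iron-sulphur subunit, read 11.87 and 11.88 against 12.02 and 12.005. The membrane anchors that bind ubiquinone read 10.26 and 10.20 against 10.37 and 10.37 for Sdhc, and 9.76 and 9.76 against 9.94 and 9.88 for Sdhd. In each of the 4 the Blnc1 arrays lay above the vector arrays, as they did for 28.3% of all genes. The log2 fold changes were nearly the same size, from 0.13 for Sdha to 0.15 for Sdhd, with standard errors of 0.075 to 0.078. None passed (limma adjusted p 0.36 to 0.44). With the variance trend Sdha and Sdhb passed (limma adjusted p = 0.0398 and 0.0131), while Sdhc and Sdhd did not (0.0796 and 0.0926).

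The assembly factors of complex II stood somewhat higher than its subunits, with a median of 0.24 for 4 genes against 0.14. Sdhaf3, which helps mature the iron-sulphur subunit, read 6.9999 and 6.99 on the vector arrays and 7.35 and 7.19 on the Blnc1 arrays, a log2 difference of 0.28 ± 0.088 (SE, n = 2 arrays a group, limma adjusted p = 0.180). Sdhaf4, a chaperone of the flavoprotein, stood at 0.25 ± 0.086 (SE), from 8.44 and 8.32 to 8.67 and 8.59. Sdhaf1, another factor for the iron-sulphur subunit, stood at 0.24 ± 0.083, from 8.18 and 8.12 to 8.44 and 8.33. These 3 had unadjusted p-values under 0.05 (limma, 0.0196 to 0.0295) and did not pass after adjustment. Sdhaf2, which attaches the flavin cofactor to the flavoprotein, had the smallest value of the complex, 0.10 ± 0.083, and the groups were close, at 8.21 and 8.18 against 8.36 and 8.24. It stood at 0.040 without Blnc1 replicate 1 and at 0.16 without Blnc1 replicate 2, where Sdhaf2 was not the smallest of the complex. The 4 factors were dimmer than the subunits and Blnc1 replicate 1 read above replicate 2 in all of them, by a median of 0.12.

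On the brightest probe set of each gene, all complex III genes read higher in Blnc1 cells. Uqcrc1, a core subunit on the matrix side, had the largest difference of the complex: 11.44 and 11.49 on the vector arrays and 11.72 and 11.70 on the Blnc1 arrays, a log2 difference of 0.25 ± 0.076 (SE, limma adjusted p = 0.171). Its partner Uqcrc2 read 12.06 and 12.03 against 12.19 and 12.12, at 0.12 ± 0.078. The Rieske iron-sulphur protein Uqcrfs1, which takes electrons from ubiquinol, read 11.59 and 11.55 against 11.80 and 11.69, at 0.17 ± 0.082. Among the small subunits, Uqcr10 stood at 0.17 ± 0.078 (11.52 and 11.47 against 11.70 and 11.64), Uqcrb at 0.16 ± 0.078 (11.28 and 11.25 against 11.46 and 11.39), Uqcrq at 0.14 and Uqcr11 at 0.095. Cytochrome c1 (Cyc1), at 0.050, and cytochrome c itself (Cycs), at 0.060, had the smallest differences; Cyc1 read 12.19 and 12.19 against 12.24 and 12.23, and Cycs 12.33 and 12.29 against 12.40 and 12.33. On these probe sets the Blnc1 arrays lay above the vector arrays in all 9 genes. They did so for 28.3% of all genes and for 139 of the 317 genes with a mean above 11. A second Cycs probe set of nearly the same brightness separated the other way, at 12.26 and 12.24 on the vector arrays against 12.20 and 12.23 (-0.031). The third Cycs probe set, a dim one, stood at 0.091 with overlapping groups. With the variance trend Uqcrc1 (limma adjusted p = 0.00110), Uqcr10 (0.0110), Uqcrq (0.0136), Uqcrb (0.0194), Uqcrfs1 (0.0210) and Uqcrc2 (0.0471) passed, and Uqcr11, Cyc1 and Cycs did not.

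The common subunits of complex IV lay close together and close to 0. Cox5a and Cox5b, subunits found in every tissue, stood at 0.074 ± 0.075 and 0.076 ± 0.075 (SE). Cox5a read 12.52 and 12.51 on the vector arrays and 12.60 and 12.58 on the Blnc1 arrays, and Cox5b 12.79 and 12.81 against 12.89 and 12.86. Cox7c stood at 0.067 (11.25 and 11.27 against 11.29 and 11.37), Cox6c at 0.049 (12.17 and 12.15 against 12.21 and 12.21) and Cox6b1 at 0.046. The Blnc1 arrays lay above the vector arrays for 4 of these 5, the exception being Cox6b1, and for 28.3% of all genes. The adjusted p-values of the 5 ran from 0.64 to 0.81 (limma).

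The remaining 2 subunit genes, Cox6b2 and Cox8c, encode isoforms known from testis and were dim, below the array medians. Cox6b2 read 5.58 and 5.40 on the vector arrays and 5.91 and 5.90 on the Blnc1 arrays, and had the largest log2 fold change and the smallest p of all members, 0.42 ± 0.091 (SE, limma adjusted p = 0.0969). Cox8c stood at -0.098 ± 0.11, with vector readings of 5.95 and 5.69 that enclosed both Blnc1 readings of 5.72.

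Among the 9 assembly factors of complex IV, Cox17 and Surf1 read higher and the other 7 lay near 0. Cox17, the copper chaperone that supplies Sco1 and Cox11, read 11.05 and 10.94 on the vector arrays and 11.38 and 11.30 on the Blnc1 arrays, a log2 difference of 0.35 ± 0.085 (SE, limma adjusted p = 0.119). It passed with the variance trend (adjusted p = 9.13e-04) and when dim probe sets were left out (adjusted p = 0.0435). Its only probe set is of a kind (IDs ending in _s_at) that can match several transcripts. Uqcrq, Atp5d and Atp5e were likewise read only by this kind, and Sdhd only by a related one (_x_at). With such probe sets left out 45 members remained. Surf1, an assembly factor whose loss causes Leigh syndrome, read 8.63 and 8.55 against 8.90 and 8.80, at 0.25 ± 0.083 (limma adjusted p = 0.191, or 0.0381 with the trend). Sco1, which passes copper on to the oxidase, read 6.03 and 6.15 against 6.11 and 6.14, at 0.034 ± 0.083. The haem A enzymes Cox10 and Cox15 stood at 0.042 ± 0.11 and 0.0071 ± 0.079; Cox10 read 7.41 and 7.32 against 7.28 and 7.53, and Cox15 8.37 and 8.46 against 8.43 and 8.42. Cox15 turned negative after repeated quantile normalization and after median centring (-0.012 and -0.0089). The 4 others, Cox14, Cox16, Cox18 and Cox19, lay between -0.092 for Cox16 (8.63 and 8.47 against 8.54 and 8.37) and 0.026.

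Complex V genes lay on both sides of 0. The median log2 fold change of its 17 genes was 0.028, with 13 above 0 (11 after repeated quantile normalization and 12 after median centring), and the core subunits lay near 0. Atp5a1, the alpha subunit, read 12.07 and 12.08 on the vector arrays and 12.11 and 12.10 on the Blnc1 arrays. Atp5b, the catalytic beta subunit, read 12.42 and 12.42 against 12.46 and 12.42. Atp5c1, the central stalk gamma subunit, read 12.11 and 12.14 against 12.14 and 12.14. Atp5o, a subunit of the outer stalk, read 12.18 and 12.14 against 12.22 and 12.16. Their log2 fold changes were 0.028, 0.021, 0.018 and 0.032, each with a standard error of 0.075 to 0.078, and the 95% interval of Atp5b, for example, ran from -0.16 to 0.21. Atp5c1 turned negative with the mean of its probe sets (-0.011) and when probe sets prone to cross-hybridisation were left out (-0.040).

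Within complex V the 3 genes of subunit c parted. These genes encode the same mature protein behind different import sequences, and the subunit forms the ring that turns as protons pass. Atp5g1 read 10.14 and 10.03 on the vector arrays and 9.81 and 9.66 on the Blnc1 arrays, a log2 difference of -0.35 ± 0.093 (SE, limma adjusted p = 0.135). Atp5g3 read 12.37 and 12.37 against 12.15 and 12.16, at -0.22 ± 0.075 (limma adjusted p = 0.202). Atp5g2 read 10.59 and 10.57 against 10.75 and 10.70, at 0.14 ± 0.077 (limma adjusted p = 0.380). None of the 3 genes had overlapping groups, and 2 were lower while 1 was higher. Such separation is common with 2 arrays a group: 28.3% of all genes lay wholly higher and 24.9% wholly lower. With the variance trend Atp5g1 and Atp5g3 passed (limma adjusted p = 0.00480 and 7.05e-04) and Atp5g2 did not (0.0538).

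The log2 ratio of Atp5g1 to Atp5g2 was -0.45 and -0.54 on the vector arrays and -0.94 and -1.04 on the Blnc1 arrays, a shift of -0.49. For Atp5g3 to Atp5g2 the shift was -0.36, and for Atp5g1 to Atp5g3, where the groups overlapped, -0.13. Probe sets differ in brightness, so only these shifts can be read, not the ratios themselves. An exact two-sided permutation test over the 4 arrays cannot go below p = 0.333; it gave 0.333, 0.333 and 0.667 for these 3 pairs (0.50, 0.50 and 0.667 after Benjamini-Hochberg adjustment). Atp5j, the coupling factor 6 of the outer stalk, was another gene with lower readings, at 11.23 and 11.20 on the vector arrays against a mean of 11.002 ± 0.0035 (SD, n = 2) on the Blnc1 arrays, -0.21 ± 0.075 (SE, limma adjusted p = 0.212, or 0.00413 with the trend). Each of Atp5g1, Atp5g3 and Atp5j had only 1 probe set, so no further probe set bears on these readings. Atp5k, a small subunit, read lower too, by far less, at 12.06 and 12.06 against 12.01 and 12.03 (-0.039 ± 0.075, SE). The other 8 genes of the complex lay between 0.00076 for Atp5md and 0.092 for Atp5h.

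**Figure D2:**
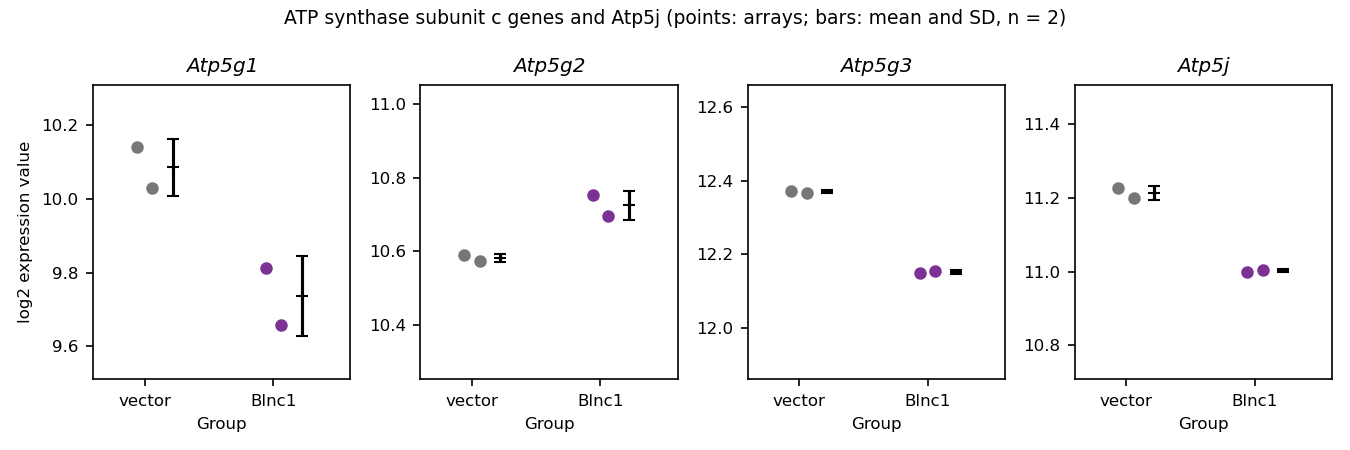
Log2 expression values (y axis, the same span in each panel) of Atp5g1, Atp5g2, Atp5g3 and Atp5j on the 2 vector and 2 Blnc1 arrays, with the mean and SD beside them. Atp5g1, Atp5g3 and Atp5j read lower on both Blnc1 arrays and Atp5g2 higher.

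The upstream sequences of the subunit c genes are shown because their readings parted, with that of Sdhd beside them as a gene of complex II. They are the 150 bases before the start site from RefSeq (build GRCm38.p6), 5' to 3' on the gene's strand, and capitals mark matches on either strand to the binding letters of NRF1 (GCGCANGCG) or of the oestrogen-related receptors (TCAAGGTCA). They lie on the minus strand at chr9:50603850-50603999 for Sdhd, chr11:96075632-96075781 for Atp5g1, chr15:102671048-102671197 for Atp5g2 and chr2:73911327-73911476 for Atp5g3.
Sdhd: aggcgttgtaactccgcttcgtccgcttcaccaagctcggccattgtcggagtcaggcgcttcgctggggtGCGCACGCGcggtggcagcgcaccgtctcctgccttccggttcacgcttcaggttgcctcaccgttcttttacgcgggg
Atp5g1: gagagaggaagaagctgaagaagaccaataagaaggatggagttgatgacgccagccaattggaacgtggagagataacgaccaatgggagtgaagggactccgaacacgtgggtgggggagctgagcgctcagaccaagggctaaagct
Atp5g2: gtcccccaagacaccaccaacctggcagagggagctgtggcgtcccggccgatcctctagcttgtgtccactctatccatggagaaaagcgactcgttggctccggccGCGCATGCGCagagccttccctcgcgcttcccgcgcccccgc
Atp5g3: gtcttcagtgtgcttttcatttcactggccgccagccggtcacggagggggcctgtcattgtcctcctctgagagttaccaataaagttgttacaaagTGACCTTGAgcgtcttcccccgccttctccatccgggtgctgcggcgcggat

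Atp5g2 holds 1 palindromic stretch, GCGCATGCGC, that matches the NRF1 letters once on each strand, from 42 and from 41 bases before its start site. Sdhd holds 1 NRF1 match that begins 79 bases before its start site, and Atp5g3 an oestrogen-related receptor match that begins 52 bases before its own. Atp5g1 holds none of the letters searched in the whole window of 300 bases, which runs from 250 before to 50 after the start. NRF1 is the factor long known to bind promoters of nuclear respiratory genes. RefSeq windows were found for 39 of the 50 members, and the NRF1 letters stood in those of 14 (35.9%), against 14.9% of 8803 genes on the arrays and 7.03% of 27025 genes in the table. By complex these were 4 of 7 genes of complex II, 3 of 5 of complex III, none of 5 subunit genes and 7 assembly factors of complex IV, and 7 of 15 of complex V. The receptor letters stood in 2 members (5.13%), Sdhd and Atp5g3, against 0.341% of genes on the arrays. The letters CCGGAAGT, bound by ETS factors such as GABP, stood in 6 members (15.4%, against 9.13%), 4 of them assembly factors of complex IV, and AAGATGGCG, bound by YY1, in 3 (7.69%, against 3.62%). NRF1 matches stood both at genes that read higher, such as Uqcrc1 and Sdha, and at Atp5g3, which read lower. A match is a description of letters and not a site of binding.

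**Figure D3:**
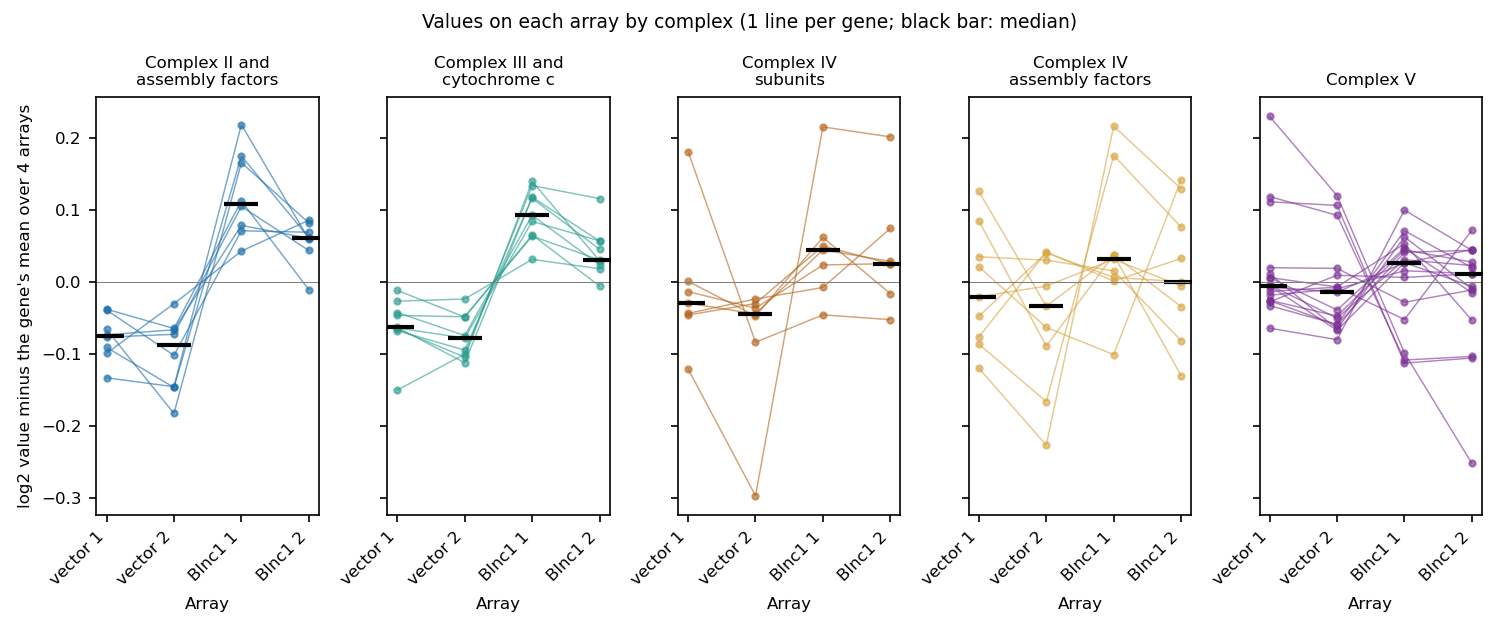
For each complex, every gene's log2 value on the 4 arrays is drawn as its distance from the gene's mean (y axis), 1 line per gene, with the median of the genes as a black bar. The Blnc1 arrays lie above the vector arrays for all genes of the first 2 panels, as they do for 28.3% of all genes measured. Complex V holds 4 lines that run down, those of Atp5g1, Atp5g3 and Atp5j and, by 0.039, that of Atp5k.

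Array by array, the median distance of complex II genes from their means was -0.075 and -0.087 on the vector arrays and 0.11 and 0.061 on the Blnc1 arrays. Complex III gave -0.063 and -0.078 against 0.093 and 0.031. Complex IV subunits gave -0.030 and -0.044 against 0.045 and 0.026. In complex V the distances shrank to -0.0046 and -0.014 against 0.027 and 0.012. Over all genes the same medians were -0.0013, -0.0064, 0.022 and -0.012, so Blnc1 replicate 1 read slightly high as a whole, and complexes II and III were highest on that array too. Without Blnc1 replicate 1 the median log2 fold change was 0.15 for complex II and 0.12 for complex III, against 0.15 and 0.14 with all arrays. Members share these arrays and are not replicates of the condition, so these medians carry no test.

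Most members sit near the top of the scale: 31 of 50 had a mean above 11, against 2.90% of all genes. Array readings are known to be compressed there, and whether this bears on the members was not tested. The median log2 fold change was 0.072 for the members above 11 and 0.054 for the 19 at or below it. Further probe sets of the same genes, which are dimmer, gave larger differences. Of 21 such probe sets, for 16 members, 18 had the same sign as the brighter one and 18 had a larger absolute log2 fold change, or 85.7%, against 51.7% of the further probe sets of all genes. Among genes whose brighter probe set read above 10, counting further probe sets above the median level, the share was 60.2%. The clearest cases were Uqcr10, at 0.17 on the probe set used and at 0.31 and 0.40 on the others, Sdha, at 0.13 against 0.16 and 0.39, and Cox6c, at 0.049 against 0.19. In the same way Atp5d stood at 0.054 and 0.14, Atp5h at 0.092 and 0.16, and Atp5j2 at 0.073 and 0.13. None of the 21 passed an adjusted p of 0.05 (limma), the nearest being the dimmest of Sdha, which read 6.43 and 6.43 against 6.78 and 6.86 (adjusted p = 0.0866), and 4 had an unadjusted p under 0.05, a share close to that of 1038 of 5766 further probe sets of all genes. Lower than the brighter probe set were the second probe set of Cycs, at -0.031, the only further probe set of Sdhaf2, at 0.071, and that of Atp5c1, at -0.040. That of Atp5k was higher but nearer to 0, at 0.017 against -0.039.

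**Figure D4:**
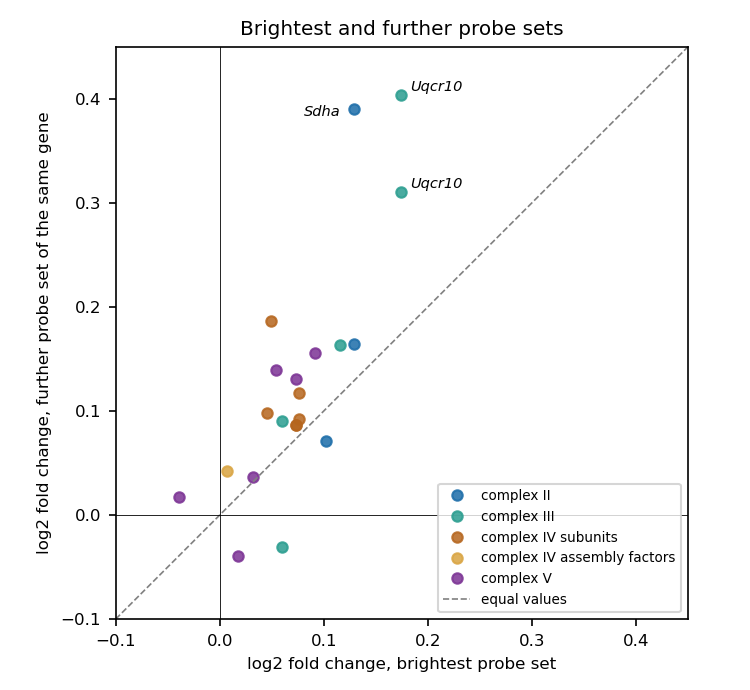
Each point is a further probe set of a member: its log2 fold change (y axis) against that of the gene's brightest probe set (x axis), with the line of equal values. Of 21 points 18 lie above the line, with the Sdha point at 0.39 and the Uqcr10 point at 0.40 farthest from it.

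**Figure D5:**
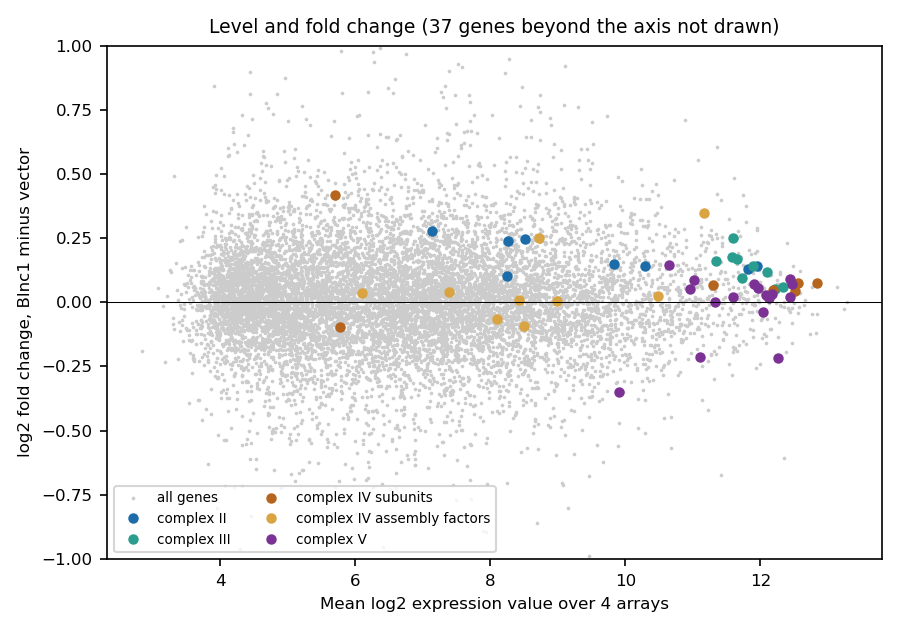
Log2 fold change (Blnc1 minus vector, y axis) against the mean log2 value over the 4 arrays (x axis), for all genes in grey and members coloured by complex; 37 genes beyond the axis are not drawn. Most members crowd at the right, with 31 of 50 above 11, where the grey cloud is also narrow.

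Other genes of the same pathway were counted beside the members. Of 33 genes with names of complex I subunits, which pass electrons from NADH to ubiquinone, all 33 read higher, against 51.6% of all genes. Their median log2 fold change was 0.16. In the main fit 0 passed, against 1.23% of all genes, and with the variance trend 24 passed, against 11.3%. These genes were bright too, with a median level of 11.36, and equally bright genes were not counted under the trend. That list was taken by name and so holds the paralogue Ndufa4l2 and a locus named Ndufs5-ps. Of the 8 measured tissue isoforms of cytochrome c oxidase 2 rose, Cox7a1 and Cox8b, which are known from muscle and brown fat. Their log2 fold changes were 1.28 and 1.13, far beyond any member. Cox6a2, also a muscle isoform, did not rise, at -0.0091 ± 0.075 (SE, limma adjusted p = 0.963). The supercomplex factor Cox7a2l stood at 0.44 ± 0.093 (SE, limma adjusted p = 0.0949), and the widespread isoforms Cox4i1, Cox6a1, Cox7a2 and Cox8a lay between 0.051 and 0.11. A list of 20 measured genes of complexes III to V with other names held mostly assembly and regulatory factors, and also Ndufa4 (0.040). Of these 20, 19 had positive values (median 0.15), against 51.6% of all genes, and none passed. Cmc1, a factor for the Cox1 subunit, stood at 0.38 ± 0.087 and the mitochondrial mRNA-binding protein Lrpprc at 0.30 ± 0.080, while Atpif1, the inhibitor of the ATP synthase, stood at 0.060 ± 0.079.

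Of 17 measured regulators of nuclear respiratory genes 11 were above 0, against 51.6% of all genes, and 6 below, and the median log2 fold change was 0.16. Ppara alone rose, at 0.73 ± 0.095 (SE, limma adjusted p = 0.0434), and none fell. The oestrogen-related receptors stood at 0.27 ± 0.091 for Esrra and 0.40 ± 0.077 for Esrrg, the coactivator Ppargc1b at 0.28 ± 0.075 and Nrf1 at 0.27 ± 0.084. Of the mitochondrial transcription factors, Tfam stood at 0.25, Tfb1m at 0.30 and Tfb2m at 0.27, and the corepressor Nrip1 at -0.32 ± 0.077. The adjusted p-values of these 8 lay between 0.0782 and 0.201 (limma). Below 0 with Nrip1 were Pprc1, a coactivator related to Ppargc1b, at -0.17 ± 0.18 (SE), Yy1 at -0.12, Gabpb2 at -0.11, Gabpb1 at -0.094 and Sp1 at -0.042, while Gabpa, Polrmt and Creb1 stood at 0.16, 0.13 and 0.072. Ppargc1a was not analysed here.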

How the data were processed

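RNA was measured on 4 single-colour arrays. The deposited table holds log2 expression values, 1 per probe set and array; the submitters' processing notes name RMA, affy and limma as the authors' tools, without versions or settings, and the log2 scale was read from the range of 2.70 to 13.3. Raw intensities were not used here. After 35 control probe sets were set aside, 23599 entered limma 3.58.1 (R 4.3.3; lmFit, then eBayes; two-sided, with neither covariate nor filter), with Benjamini-Hochberg adjustment over all of them, a threshold of 0.05 and a prior of 3.95 degrees of freedom. Gene names came from GEO's platform annotation: 16692 had 1 symbol, 372 several and 6535 none. All 50 members matched RefSeq (GRCm38.p6) by Entrez ID and symbol.

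The members and lists were chosen with earlier results of these data known, so lists are given by counts and medians with no set test. Genes named with values are, by rule, the 3 smallest p-values and both extremes of each complex and a fixed set of core genes; the further genes named were chosen after their values were seen, as were the letters of the promoter motifs. The fit was tested on simulated data, whose values are not given. The alternatives were a variance trend in the prior, no moderation, repeated quantile normalization, median centring, leaving out dim or cross-hybridising probe sets, averaging all probe sets of a gene, a threshold of 0.10, a block for the replicate number, and dropping each array in turn.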

Additional observations from a re-analysis of the deposited data

How the results depend on the processing

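A limma variance trend called 14 members, 1237 of 10926 genes (11.3%) and 39 genes of the other pathway lists, against 0, 134 (1.23%) and 3. At an unadjusted p under 0.05 (limma) the trend gave 27 members and the main fit 10. Under the trend 13.7% of all genes reached that mark upward and 11.1% downward, and in the main fit 11.7% and 9.08%. Without dim probe sets the counts were 1 of 48 members (Cox17), 612 genes and 11 list genes. The total of genes left by that filter is not given here, so 612 cannot be read as a share. At a threshold of 0.10 the counts were 1 of 50 members (Cox6b2) and 545 of 10926 genes. With no moderation 0 genes passed.

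Repeated quantile normalization gave medians of 0.054 for all members, 0.11 for complex III and 0.048 for complex IV subunits, and Cox15 at -0.012. Median centring gave 0.053 for all members, 0.051 for complex IV subunits and 0.012 for complex V, and Cox15 at -0.0089. Averaging all probe sets of a gene gave 0.084 for all members, 0.19 for complex II and 0.082 for complex IV subunits, and Atp5c1 at -0.011; without cross-hybridising probe sets Atp5c1 stood at -0.040. Under the replicate block 0 members, 19 genes and 2 list genes passed; deviations of same-numbered arrays correlated at 0.089 over all probe sets and at 0.25 over the members, and as the labels do not say that the number pairs arrays, the block was not used.

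Leaving out 1 array, with each gene's probe set kept, called no member. Among all genes 3 passed without either Blnc1 array, 22 without vector replicate 1 and 23 without vector replicate 2, and among the list genes 0 to 2. Members with an unadjusted p under 0.05 numbered 3 to 8. Medians ran from 0.064 to 0.084 for all members, from 0.15 to 0.17 for complex II, from 0.063 to 0.081 for complex IV subunits, from 0.0068 (without Blnc1 replicate 1) to 0.033 for complex IV assembly factors, and from 0.021 to 0.054 (without Blnc1 replicate 2) for complex V. Values near 0 changed sign: Cox15 ran from -0.037 to 0.051, Sco1 from -0.025 to 0.093, Atp5c1 from -0.00060 to 0.036, Cox8c from -0.23 to 0.035 and Cox10 from -0.080 to 0.16. Of 35 named members 6 more moved by over 1.5 times without changing sign: Sdhaf2 (0.040 to 0.16), Cycs (0.025 to 0.096), Cox7c (0.026 to 0.11), Cox16 (-0.18 to -0.0087), Atp5b (0.0041 to 0.037) and Atp5o (0.0012 to 0.063). Of 381 values of named members under the alternatives 357 kept their direction and side of the threshold, 14 newly passed and 10 changed sign; the cause was not tested.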
